A study of Mus musculus with 6 samples.

Results

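Kdm2a and 9 other histone lysine demethylase genes were described in the anterior cingulate cortex (ACC), a frontal cortical region, of C57BL/6 mice. The 10 genes (Kdm1a, Kdm2a, Kdm2b, Kdm3a, Kdm3b, Kdm4a, Kdm4b, Kdm5a, Kdm5b and Kdm6b) were chosen by symbol, and each had a row among the 14250 rows of the authors' table. Kdm2a had drawn attention because of its difference between the groups, so its values between the groups are given as a description. On postnatal day 14 the mice were given lipopolysaccharide (LPS, a bacterial endotoxin, 50 µg per kg) or saline without pyrogens into the abdomen, and ACC tissue was taken on postnatal day 45. Each group held 3 mice, LPS 1 to 3 and Saline 1 to 3, with polyadenylated RNA from 1 mouse per library and no genetic change named in the labels. The tissue was a hand dissection of mixed cell types, and the labels state neither the sex nor the litter of the mice.

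Histone lysine demethylases remove methyl groups from lysines of histone tails and so undo the work of histone methyltransferases. Kdm1a is an amine oxidase that uses a flavin cofactor. All the others carry a JmjC domain, which needs iron, oxygen and 2-oxoglutarate. In the brain, loss of several such enzymes disturbs neuronal development, and these marks help to set which genes a neuron keeps active. Kdm2a and its paralog Kdm2b also carry a CXXC zinc finger, which binds CpG islands free of DNA methylation, and an F-box with leucine-rich repeats.

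The libraries held 36168687 to 41270737 counts in the LPS group and 37416194 to 39804999 in the saline group. All 8 markers of cortical excitatory neurons were measured, with a summed level of 2362 to 2520 CPM (counts per 1000000 reads) in LPS and 2279 to 2577 CPM in saline libraries. The summed markers of thalamus were at 29.9 to 39.0 CPM in LPS and 34.0 to 41.2 CPM in saline libraries, and those of striatum at 161 to 176 CPM in LPS and 154 to 167 CPM in saline libraries. The sums of the markers of inhibitory neurons, astrocytes, oligodendrocytes, microglia, vessels and meninges, and the 1 of 4 choroid plexus markers with a row, overlapped between the groups. Those of oligodendrocyte precursors (4 of 4 markers with a row) did not, at 218.9 to 247 CPM in LPS and 188 to 218.0 CPM in saline libraries. That gap was narrow. Of these 4 markers (median log2 change 0.13), 3 had a positive log2 change and 2 an unadjusted p under 0.05. The groups did not overlap in 1 of the 4, with LPS above, and in 6.84% of all rows in that direction. Within lists whose sums overlapped, 5 of 5 meninges markers had a positive log2 change (median 0.32, 0 at an unadjusted p under 0.05). So did 6 of 7 inhibitory neuron markers (median 0.12, 2 at that level) and 4 of 6 striatum markers (median 0.23, 2 at that level). The groups did not overlap in 3 of the 7 inhibitory neuron markers, with LPS above, and in 0 of the meninges and striatum markers. Of the 6 microglia markers, 4 had a positive log2 change (median 0.057), as did 2 of the 4 thalamus markers (median -0.026). The groups did not overlap, with LPS below, in 1 microglia and 1 thalamus marker, and in 6.84% of all rows. Lower in LPS at an unadjusted p under 0.05 were 1 of 6 microglia markers, Aif1, and 1 of 4 thalamus markers, Rgs16. Of all rows, 7.17% reached that level in edgeR. EdgeR, DESeq2 and limma-voom called 0 genes in the marker lists. They called 0.288%, 0.983% and 0.239% of all rows, so 0 calls in lists this short say little. The share of counts in rows without a known gene (newGene) differed as well, with LPS libraries between 1.61% and 2.03% and saline libraries between 2.51% and 2.93%. The part of these differences in the results below was not tested.

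Kdm2a, which removes mono- and dimethyl marks from lysine 36 of histone H3, was measured at 0.535 of its saline level in LPS mice. Its level was 48.6, 51.6 and 50.5 CPM in LPS 1, LPS 2 and LPS 3, against 97.1, 93.1 and 91.5 CPM in Saline 1, Saline 2 and Saline 3. The groups were far apart, and neither spread by more than a few CPM. The means were 50.2 ± 1.54 CPM in LPS and 93.9 ± 2.87 CPM in saline libraries (SD, n = 3 each). The edgeR log2 change was -0.90 (SE 0.0566, 95% interval -1.03 to -0.78). These values rested on 1843 to 2088 reads in LPS and 3482 to 3726 reads in saline libraries. In bulk tissue, fewer cells of a type that expresses Kdm2a and less Kdm2a RNA per cell cannot be told apart.

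**Figure D1:**
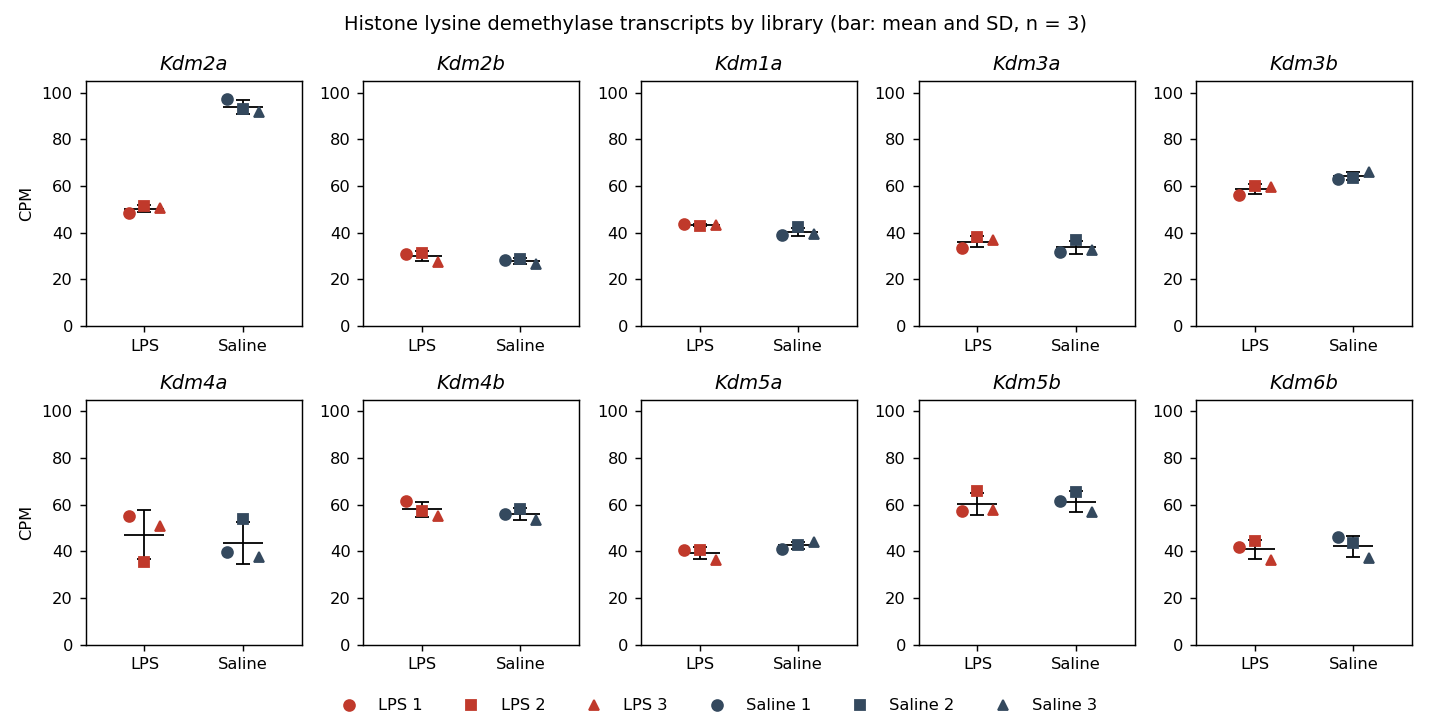
Level of each of the 10 demethylase genes in CPM (vertical axis, from 0) in the LPS and the saline libraries. Each point is 1 mouse, its shape gives the replicate number, and the horizontal bar with whiskers is the mean and SD (n = 3). Kdm2a lies near 50 CPM in all LPS and above 91 CPM in all saline libraries, and Kdm4a is widely spread in both groups.

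Over all rows edgeR's quasi-likelihood test, with a threshold of 0.05 on the Benjamini-Hochberg adjusted p, called 1 of the 10 genes lower, Kdm2a, and 0 higher. It called 0.189% of all rows lower, 0.0982% higher and 0.288% in either direction. Because Kdm2a was chosen for this contrast, nothing is read from that count. DESeq2 and limma-voom also called 1 of the 10, where they called 0.983% and 0.239% of all rows. At an unadjusted p under 0.05 there were 2 of the 10, Kdm2a and Kdm3b, and 7.17% of all rows. The LPS and saline values did not overlap in 4 of the 10 (3 with LPS below, 1 with LPS above), and in 13.7% of all rows (6.84% in each direction). The median log2 change of the 10 genes was 0.014, and that of all rows was 0.0014.

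Kdm2b, the paralog of Kdm2a, recruits a variant Polycomb complex to CpG islands. It had 30.7, 31.4 and 27.6 CPM in the LPS libraries, against 28.4, 28.5 and 26.5 CPM in the saline libraries. The groups overlapped, since LPS 3 lay below 2 saline libraries. Its log2 change was 0.11 (SE 0.0789, 95% interval -0.07 to 0.28). The interval of Kdm2b thus leaves out a fall of the size seen in Kdm2a, although the difference between the paralogs was not tested. Exons of Kdm2b share 627 bases with Rnf34 on the opposite strand, and no label says that the library kit preserves strand, so part of its reads is uncertain.

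Kdm1a (LSD1) removes mono- and dimethyl marks from lysine 4 of histone H3 as part of the CoREST repressor complex. It had 43.7, 43.1 and 43.2 CPM in the LPS libraries, against 39.1, 42.4 and 39.5 CPM in the saline libraries. Every LPS library lay above every saline library, but by under 1 CPM at the nearest pair. The log2 change of Kdm1a was 0.10 (SE 0.0640, 95% interval -0.04 to 0.25).

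Kdm3a and Kdm3b remove mono- and dimethyl marks from lysine 9 of histone H3. Kdm3b had 56.2, 59.9 and 59.6 CPM in the LPS libraries, against 63.2, 63.5 and 66.2 CPM in the saline libraries. Each LPS value of Kdm3b was below each saline value, and the log2 change was -0.13 (SE 0.0578, 95% interval -0.26 to -0.0046). Kdm3b did not pass the threshold over all rows, and its exons share 3468 bases with a long noncoding gene on the other strand, Gm26538, which has no row. Kdm3a, which hypoxia induces in many cell types, had 33.4 to 38.1 CPM in LPS and 31.9 to 37.0 CPM in saline libraries. The ranges of Kdm3a overlapped, with a log2 change of 0.10 (SE 0.0853).

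Kdm4a and Kdm4b act on trimethylated lysine 9 and lysine 36 of histone H3. Kdm4a had 55.0, 35.2 and 50.9 CPM in LPS 1, LPS 2 and LPS 3, against 39.5, 53.9 and 37.5 CPM in Saline 1, Saline 2 and Saline 3. LPS 1, LPS 3 and Saline 2 were high and the other 3 libraries low, so the spread did not follow the treatment. The highest value was 1.56-fold the lowest within the LPS group and 1.44-fold within the saline group. Among the 7522 rows with a mean of at least 20 CPM, 96.2% had a smaller fold range in the LPS and 95.0% in the saline group. The fitted log2 change was 0.11 with an SE of 0.227 (95% interval -0.47 to 0.68), the widest of the 10 genes. The authors' FPKM values showed the same split, at 11.4, 7.38 and 11.1 in the LPS and 7.78, 11.8 and 7.68 in the saline libraries.

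In Kdm4b the values were 61.5, 57.0 and 55.2 CPM in LPS libraries, against 56.0, 58.2 and 53.2 CPM in saline libraries. They overlapped, with a log2 change of 0.053 (SE 0.0662).

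Kdm5a and Kdm5b remove di- and trimethyl marks from lysine 4 of histone H3, the trimethyl form being a mark of active promoters. Kdm5a had 40.7, 40.4 and 36.1 CPM in the LPS libraries, against 40.96, 42.6 and 43.8 CPM in the saline libraries. The LPS values of Kdm5a were all lower, narrowly so at the nearest pair, with a log2 change of -0.12 (SE 0.0722, 95% interval -0.28 to 0.04). Exons of Kdm5a share 251 bases with Ccdc77 on the opposite strand. Kdm5b had 57.1 to 65.7 CPM in LPS and 56.7 to 65.4 CPM in saline libraries, nearly the same range, and a log2 change of -0.025 (SE 0.0780).

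Kdm6b (JMJD3) removes di- and trimethyl marks from lysine 27 of histone H3 and is induced by LPS in macrophages within hours. In this tissue, a month after the injection, it had 41.7, 44.2 and 36.4 CPM in LPS libraries, against 45.9, 43.4 and 37.0 CPM in saline libraries. The groups overlapped and the log2 change was -0.046 (SE 0.10, 95% interval -0.27 to 0.18). An antisense gene, Kdm6bos, shares 286 exon bases with Kdm6b.

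Summed over the 10 genes, the level was 454 to 468 CPM in LPS and 484 to 528 CPM in saline libraries. The sums did not overlap. Without Kdm2a they did, at 404 to 420 CPM in LPS and 393 to 435 CPM in saline libraries. Kdm2a made up 10.4% to 11.1% of the reads of the 10 genes in LPS and 17.6% to 19.3% in saline libraries.

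Levels of different genes were compared per length with the authors' FPKM (fragments scaled to transcript length and library size). Kdm1a was the highest of the 10 in saline mice at 13.9 ± 0.429 FPKM, and Kdm2a followed at 13.5 ± 0.318 FPKM (SD, n = 3 each). Their saline ranges overlapped. Kdm4b came next at 12.4 ± 0.230 FPKM and Kdm3b after it at 10.4 ± 0.336 FPKM, each below its neighbour in every saline library. Kdm4a (9.09 FPKM), Kdm3a (7.97 FPKM) and Kdm5b (7.67 FPKM) formed a middle stretch in which neighbours overlapped, and the range of Kdm4a also overlapped that of Kdm3b. Kdm2b (6.29 FPKM) and Kdm6b (5.80 FPKM) overlapped each other and lay below that stretch, and Kdm5a was the lowest at 3.59 ± 0.254 FPKM. In LPS mice, Kdm2a was the fifth by mean FPKM, at 8.01 ± 1.26 FPKM, next to Kdm3a at 7.76 ± 0.434 FPKM. That place rested on LPS 2 (9.46 FPKM). In LPS 1 and LPS 3, Kdm2a was below Kdm3a (7.47 and 7.55 FPKM), and only just below Kdm5b (both 7.34 FPKM).

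For Kdm2a, the difference was smaller in the authors' FPKM than in their counts. Its FPKM was 7.23, 9.46 and 7.34 in LPS 1, LPS 2 and LPS 3, against 13.5, 13.8 and 13.2 in Saline 1, Saline 2 and Saline 3. The groups remained apart, but LPS 2 was above the other LPS libraries. The mean FPKM in LPS mice was 0.593 of that in saline mice. On the log2(FPKM + 1) scale, which understates the change of low genes, the change was -0.70 (SE 0.0993), and -0.81 without LPS 2. In limma on FPKM the call of Kdm2a was close to the threshold and was lost with a pseudocount of 0.1. With a pseudocount of 1, limma on FPKM called 0.219% of the rows it tested.

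The ratio of FPKM to count, taken within each gene after dividing by each library's median and set to a mean of 1 in saline, showed where the 2 deposited units part. For Kdm2a it was 1.02, 1.31 and 1.01 in LPS 1, LPS 2 and LPS 3, against 1.00, 1.02 and 0.984 in Saline 1, Saline 2 and Saline 3. Only LPS 2 stood apart. Of 13308 rows with at least 50 counts in every library, 0.939% departed as far from 1 in LPS 2. In Kdm3a the ratio was 0.927, 0.937 and 0.863 in the LPS libraries, against 1.06, 0.856 and 1.08 in the saline libraries, and its log2 change turned to -0.035 in FPKM. Kdm6b had a ratio of 1.00 in all 6 libraries.

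**Figure D2:**
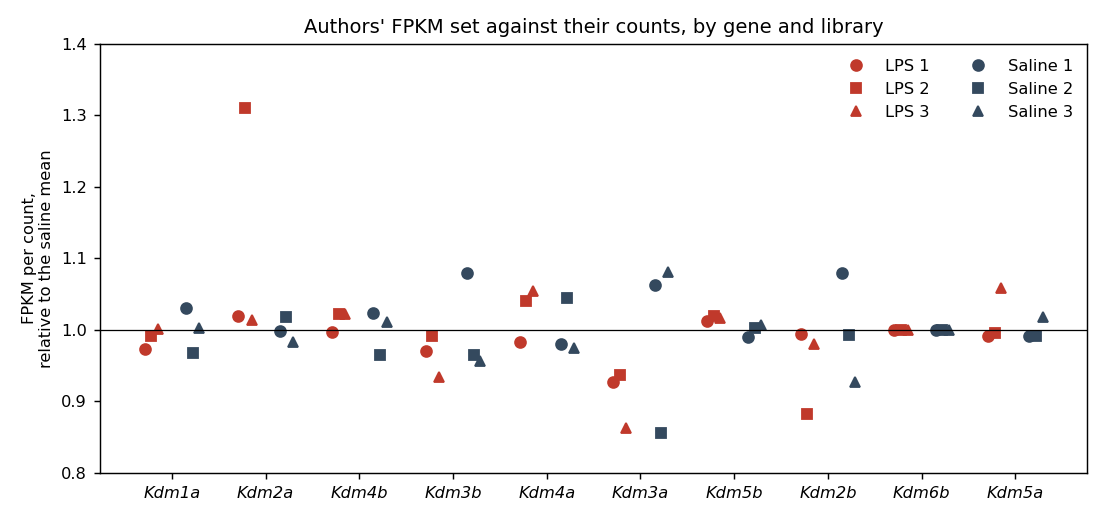
Ratio of the authors' FPKM to their count (vertical axis, saline mean of each gene set to 1, starting at 0.8) for the 10 genes, ordered by saline FPKM. Each point is 1 library. The value of Kdm2a in LPS 2 (1.31) is the farthest from 1, and Kdm6b sits at 1.00 in all libraries.

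Kdm2a lies on chromosome 19 of GRCm38, from 4314419 to 4398285 on the minus strand, per GENCODE M21. Its exons overlap those of no other gene in GENCODE M21. Overlap with the newGene rows was not checked, and no label says that the library kit preserves strand. Within 500 kb, 38 other genes were tested. EdgeR called 0 of them, and 2 had an unadjusted p under 0.05 (Pold4 at 0.37 and Rps6kb2 at 0.23 on the log2 scale). DESeq2 and limma-voom also called 0. The unadjusted share over all rows was 7.17%. The called shares there were 0.288% in edgeR, 0.983% in DESeq2 and 0.239% in limma-voom. With shares this low, 0 calls among 38 genes do not set the region apart from other rows. The median log2 change of the 38 genes was 0.0049, with a range of -0.38 to 0.37. The nearest tested gene on the lower side is Grk2, a receptor kinase gene 8.2 kb away, with a log2 change of 0.026 (SE 0.0651). On the upper side it is Syt12, a synaptotagmin gene 47.6 kb away, with a log2 change of 0.12 (SE 0.10).

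**Figure D3:**
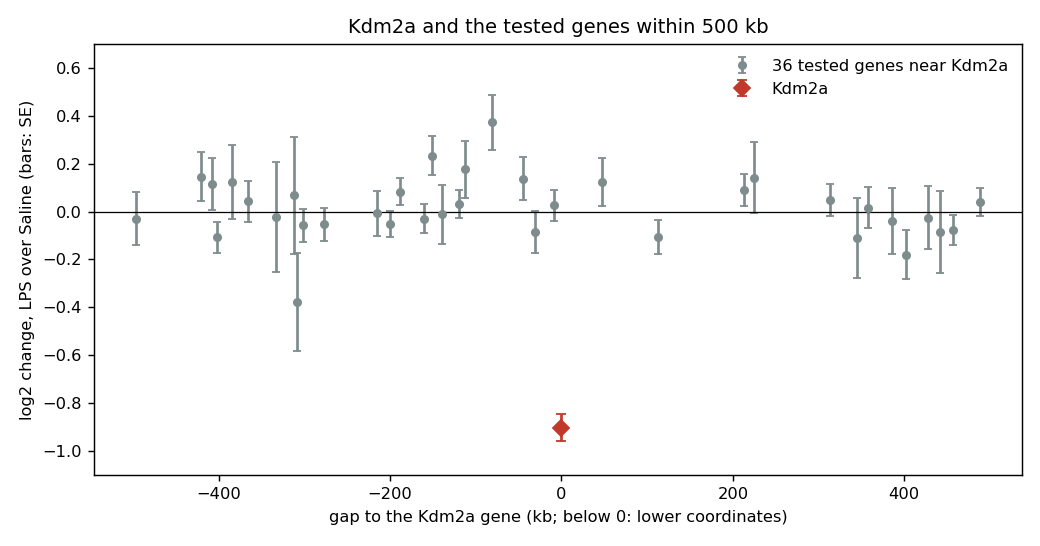
Log2 change, LPS over Saline, with its SE (vertical axis) against the gap in kb to the Kdm2a gene (horizontal axis) for Kdm2a and 36 tested genes near it. The 2 genes with an SE over 0.5 are left out. Kdm2a lies at -0.90 and the plotted neighbours between -0.38 and 0.37.

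Over the 6 libraries, the genes whose profile was closest to that of Kdm2a were Gadd45b, Dusp5, Hspa1b, Cntnap2 and Herc6. Closeness was the root mean square difference between log2 CPM profiles, each centred on its own mean, and was 0.0753 to 0.104 among 13182 named genes, while a flat profile would be 0.449 away. All 5 were lower in every LPS library, with log2 changes of -0.75 to -0.82. That follows from ranking genes by closeness to Kdm2a, whose profile is mostly its difference between the groups. Kdm2a was chosen for that difference, so nothing is read from the shared fall. Cntnap2, a neurexin family gene, was the one at a similar level, at 56.3 CPM in LPS and 96.0 CPM in saline libraries. Of the other demethylase genes, Kdm3b was closest, at a distance of 0.384 and rank 1099. For Kdm4a, whose spread was noticed only once its values were seen, the closest profiles were those of Ccdc166, Arg2, C1s1, Sypl2 and Cst6, at distances of 0.0731 to 0.104. Those 5 genes are lowly expressed, below 10 CPM in every library.

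The counts in the gene lists that follow stand beside those over all rows, where the unadjusted p of edgeR was under 0.05 in 7.17% and calls were made in 0.288% by edgeR, 0.983% by DESeq2 and 0.239% by limma-voom. Among 16 other demethylase and JmjC genes with a row, edgeR called 0 and 0 had an unadjusted p under 0.05. DESeq2 and limma-voom called 0 as well. The median log2 change was -0.042. Kdm4c, a relative of Kdm4a, had 22.2 ± 0.293 CPM in LPS and 25.5 ± 2.61 CPM in saline libraries (SD, n = 3 each). Its log2 change was -0.20 (SE 0.0887), and its groups did not overlap. Jarid2, a JmjC protein of a Polycomb complex without demethylase activity, had a log2 change of 0.10 (SE 0.0727), and Jmjd6, an arginine- and lysine-modifying JmjC enzyme, -0.14 (SE 0.102). Kdm6a, which acts on the same mark as Kdm6b, had -0.17 (SE 0.186). The Y-linked genes Kdm5d (21.7 to 26.7 CPM) and Uty (10.3 to 13.7 CPM) were detected in all 6 libraries, with log2 changes of -0.076 and 0.023. Each of the 6 mice thus carried a Y chromosome, although the labels do not state the sex.

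**Figure D4:**
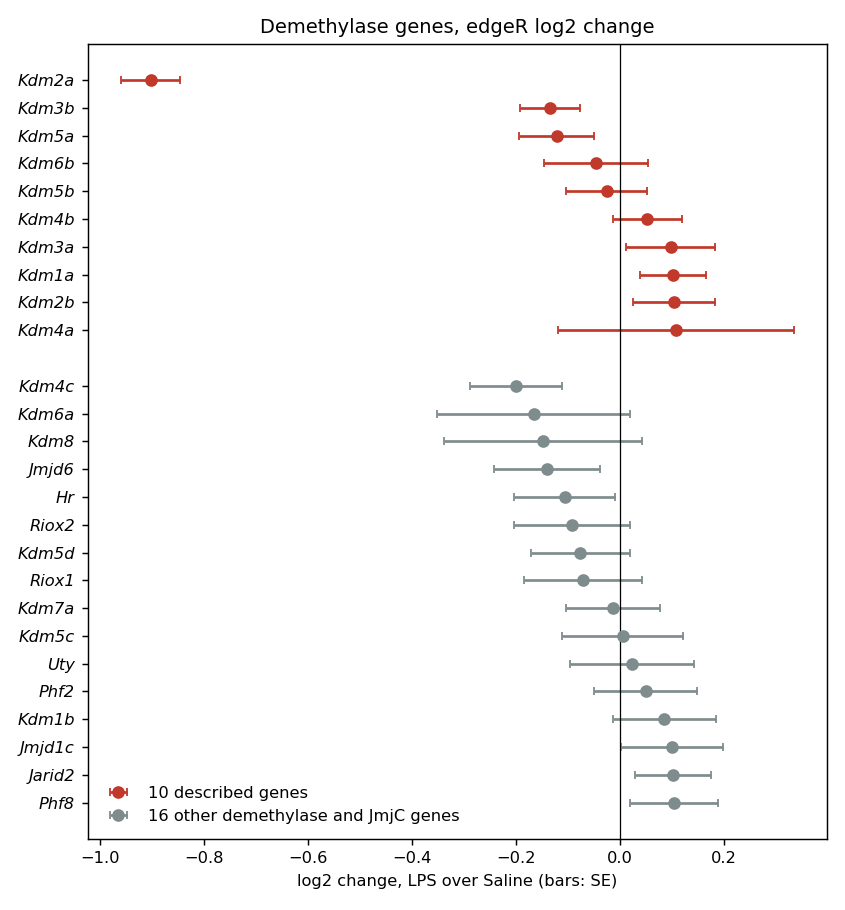
EdgeR log2 change, LPS over Saline (horizontal axis, bars are SE), for the 10 demethylase genes and the 16 other demethylase and JmjC genes with a row. Kdm2a stands at -0.90, and the other 25 lie between -0.20 and 0.11.

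CpG-binding proteins with a CXXC finger form the nearest group to Kdm2a by function. Of 12 measured, edgeR called 1 lower, Kdm2a itself, and 0 higher, and the median log2 change was 0.06. Fbxl19, the remaining protein with both a CXXC finger and an F-box, had 82.8 CPM in LPS and 78.1 CPM in saline libraries, a log2 change of 0.084 (SE 0.0708). The DNA demethylase gene Tet3 had 0.19 (SE 0.10) and the maintenance DNA methyltransferase gene Dnmt1 had 0.11 (SE 0.0658). Among 19 genes of F-box proteins with leucine-rich repeats, the 1 gene called lower was the same Kdm2a and 0 were higher, with a median of 0.025. Both lists include Kdm2a, which was chosen for this contrast, so nothing is read from its call in them. In the F-box list, Fbxl12 (-0.62, SE 0.241) and Fbxl7 (0.55, SE 0.240) had an unadjusted p under 0.05 and did not pass.

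The enzymes that write lysine methylation were compared with the same fit. Of 32 measured, edgeR called 0 and 6 had an unadjusted p under 0.05, 1 lower and 5 higher (7.17% of all rows), with a median log2 change of 0.050. DESeq2 called 1 (0.983% of all rows) and limma-voom 0. Kmt5a, which monomethylates lysine 20 of histone H4, had 22.6, 32.4 and 27.8 CPM in the LPS libraries, against 42.5, 42.0 and 41.9 CPM in the saline libraries. All LPS values of Kmt5a were below the saline values, but they spread widely. Its log2 change was -0.61 (SE 0.119, edgeR adjusted p = 0.126). DESeq2 called Kmt5a (adjusted p = 0.000327), and edgeR called it without LPS 2 (adjusted p = 0.0267). These were the 2 of 16 alternatives that did, and the adjusted p over all 16 reached 0.580, on FPKM, where the log2 change was -0.33. Setd5, a SET domain gene, had 154 ± 8.57 CPM in LPS and 132 ± 2.60 CPM in saline libraries (log2 0.23, SE 0.0589, edgeR adjusted p = 0.337). Kmt5c, which adds methyl groups to the same lysine as Kmt5a, had a log2 change of 0.37 (SE 0.127) and did not pass, although each LPS value was above each saline value.

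Partner complexes held no called gene by edgeR. In the LSD1-CoREST list 0 of 13 passed and 2 had an unadjusted p under 0.05. Phf21a, a subunit that reads unmethylated histone H3, had 34.1, 47.0 and 46.5 CPM in the LPS libraries, against 27.0, 33.4 and 27.3 CPM in the saline libraries. LPS 1 lay just above Saline 2, and the log2 change was 0.54 (SE 0.143, edgeR adjusted p = 0.404, DESeq2 adjusted p = 0.0147). EdgeR without LPS 1 called Phf21a too (adjusted p = 0.0477), and over 16 alternatives the adjusted p reached 0.986. Its log2 change was 0.081 on FPKM with a pseudocount of 1 and -0.056 there without LPS 2. The corepressor gene Rcor2 had -0.25 (SE 0.0899). In the Polycomb lists, 0 of 22 genes of the PRC1 list and 0 of 10 of the PRC2 list passed, with 1 each at an unadjusted p under 0.05, Pcgf6 (0.30, SE 0.128) and Mtf2 (0.25, SE 0.106). Median log2 changes were 0.034 for LSD1-CoREST, 0.014 for PRC1 and -0.024 for PRC2.

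In the COMPASS list, whose complexes methylate lysine 4 of histone H3, 0 of 11 passed edgeR and 0 had an unadjusted p under 0.05. Its smallest p belonged to Paxip1 (0.14, SE 0.0717), and the list median was -0.0044. Enzymes around 2-oxoglutarate and succinate, the cosubstrate and product of the JmjC reaction, had 0 of 14 called, 0 at an unadjusted p under 0.05 and a median of -0.040. Hypoxia response genes, a context in which Kdm3a and Kdm4b are known to rise, had 0 of 17 called, 1 at an unadjusted p under 0.05 (Pdk1, -0.15, SE 0.0669) and a median of 0.031. DESeq2 and limma-voom called 0 in the Polycomb, COMPASS, 2-oxoglutarate and hypoxia lists.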

How the data were processed

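RNA-seq of 3 LPS and 3 saline ACC samples was analysed from 1 table. The authors deposited raw counts per gene and FPKM beside them. TopHat2 2.1, DESeq 1.10.1 and build GRCm38 are named, per the submitters' processing notes. Their roles, the counting program and the annotation are not stated there. Of 13562 Ensembl identifiers, 13559 were found in GENCODE M21 (GRCm38), which gave positions.

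The deposited counts were tested with edgeR 4.0.16 in R 4.3.3 (quasi-likelihood test, robust option, TMM factors, filterByExpr, which removed 0 rows), with treatment as the only term, all 6 libraries and two-sided p-values. SE is the log2 change over the root of F. CPM uses TMM factors. Alternatives were DESeq2 1.42.0, limma 3.58.1 (voom, and on log2 of the authors' FPKM with a pseudocount of 1 or 0.1 and a mean of at least 0.5), RLE factors, filters, the replicate number as a block, and each library left out. Fits were tested on simulated counts. Each pair of libraries differed by far more than sampling noise (chi-square over degrees of freedom of 32.1 or more), so no pair was a duplicate.

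The genes and lists were chosen with earlier results of these data known. Text names all 10 genes, called list members and up to 3 others with the smallest p, the nearest tested genes to Kdm2a, called ones or, chosen after their values were seen, those at an unadjusted p under 0.05 within 500 kb, and the 5 closest profiles. Others were also chosen after their values were seen. Some genes that this rule would name are not reported here.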

Additional observations from a re-analysis of the deposited data

How the results depend on the processing

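The log2 change of Kdm2a kept its direction under all alternatives run, from -0.92 to -0.70. It passed the threshold in each fit to counts. On FPKM it passed in limma with a pseudocount of 1, and did not with a pseudocount of 0.1 (-0.76, so 0 genes of the 10 were called lower). Alternatives added after seeing the data gave -0.70 and 0 called genes in limma without a mean trend or the robust option, and -0.81 and 1 called gene without LPS 2. Leaving out each library gave -0.92 to -0.88 for Kdm2a, 1 called gene of the 10 in each fit, 0 to 1 methyltransferase genes called (1 without LPS 2), 14 to 20 rows higher and 22 to 35 rows lower.

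Against 14 rows higher and 27 lower in edgeR, DESeq2 called 60 and 80, and 1 methyltransferase gene. Rows higher were 8 on FPKM with a pseudocount of 1 or 0.1, and 7 without trend and robust option. The cause was not tested. With the replicate number as a block, Kdm2a stayed at -0.90 and passed, with 10 rows higher and 21 lower. Same-numbered libraries deviated from their group means with correlations of -0.0205, -0.00472 and 0.0334, so no pairing by number was seen. A pairing that touched few genes would not show in correlations taken over many genes at once.

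Small differences turned sign. Kdm3a was at -0.035 and -0.039 on FPKM with a pseudocount of 1 and 0.1, -0.035 without trend and robust option, and -0.075 without LPS 2. When 1 library was left out of the counts, Kdm4a ran from -0.019 (without LPS 1) to 0.29, Kdm5b from -0.092 to 0.025 and Kdm6b from -0.13 to 0.030. With 3 mice per group, the intervals above bound what could be seen, and Kdm4a is limited by its spread within groups.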
